A study of Mus musculus with 20 samples.

Results

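The 10 genes described here, Adipoq, Car3, Cidea, Thrsp, Fasn, Acly, Scd1, Lpl, Ucp1 and Lipe, are genes of adipocytes and of fatty acid synthesis and breakdown, followed in whole mouse kidney. The members are all probe sets that the platform annotation gives to 1 of these genes alone: 14 probe sets of 10 genes, out of 12422 probe sets measured and 8251 genes that a probe set names alone. Kidney RNA came from Hyp mice on a low phosphate diet, Hyp mice on a control diet, normal mice on a low phosphate diet and normal mice on a control diet, with 5 arrays in each group. Every array held RNA pooled from 3 mice of the strain C57BL/6J, so the 20 arrays are 20 pools, and the spread between mice within a pool was not measured. The Hyp strain lacks normal Phex function, and it models the renal phosphate wasting of X-linked hypophosphatemia. The diets lasted 5 days on 12 arrays (4 female, 8 male) and 3 days on 8 arrays (4 female, 4 male), each with equal numbers of the 4 groups. The labels give neither age nor zygosity.

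Adipoq encodes adiponectin, a hormone secreted by adipocytes. Cidea coats lipid droplets and is abundant in brown fat, Ucp1 is the uncoupling protein that lets brown adipocytes make heat, and Car3 is a carbonic anhydrase abundant in adipocytes and in skeletal muscle. Acly makes cytosolic acetyl-CoA from citrate, Fasn builds palmitate from it, Scd1 puts the first double bond into saturated fatty acids, and Thrsp (Spot 14) is a nuclear protein that rises with lipogenesis in liver and fat. Lpl, lipoprotein lipase, releases fatty acids from circulating lipoproteins, and Lipe, hormone-sensitive lipase, releases them from stored fat. The kidney takes up and burns fatty acids for energy and is surrounded by perirenal fat, which in mice can hold brown adipocytes. In whole-tissue RNA, fewer cells of a type and less RNA per cell cannot be told apart.

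The region around the start of transcription is shown for Adipoq, Thrsp, Fasn and Acly, the 4 members whose window held the motif CCAAT. Adipoq is a gene that adipocytes express and the others are genes of fat synthesis. The sequences are from RefSeq on GRCm38.p6, 250 bases before to 50 bases after the start, 5′ to 3′ on the gene's own strand. Entries were found for 6 of the 10 members (Car3, Cidea, Scd1 and Lpl had none). Capitals mark CCAAT, the motif bound by the factor NF-Y, in either orientation (ATTGG on the other strand).
Adipoq, chr16:23146286-23146585, plus strand: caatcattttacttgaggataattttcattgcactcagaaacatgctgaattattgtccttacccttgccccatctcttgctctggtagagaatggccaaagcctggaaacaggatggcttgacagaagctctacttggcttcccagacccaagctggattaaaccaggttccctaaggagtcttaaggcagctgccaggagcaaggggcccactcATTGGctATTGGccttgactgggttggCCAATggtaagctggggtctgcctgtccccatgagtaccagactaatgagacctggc
Thrsp, chr7:97417501-97417800, minus strand: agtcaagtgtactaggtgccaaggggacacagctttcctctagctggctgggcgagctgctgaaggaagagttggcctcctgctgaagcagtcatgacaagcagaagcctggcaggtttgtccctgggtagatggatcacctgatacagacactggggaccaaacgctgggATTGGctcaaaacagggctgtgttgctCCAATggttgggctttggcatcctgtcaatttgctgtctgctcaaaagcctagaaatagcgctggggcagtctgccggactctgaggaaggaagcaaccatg
Fasn, chr11:120824498-120824797, minus strand: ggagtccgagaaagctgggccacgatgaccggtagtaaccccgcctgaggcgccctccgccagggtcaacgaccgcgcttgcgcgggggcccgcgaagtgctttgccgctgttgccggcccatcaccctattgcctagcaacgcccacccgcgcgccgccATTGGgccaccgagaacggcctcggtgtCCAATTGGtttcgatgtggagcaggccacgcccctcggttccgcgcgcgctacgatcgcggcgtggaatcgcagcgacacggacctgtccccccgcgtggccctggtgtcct
Acly, chr11:100527951-100528250, minus strand: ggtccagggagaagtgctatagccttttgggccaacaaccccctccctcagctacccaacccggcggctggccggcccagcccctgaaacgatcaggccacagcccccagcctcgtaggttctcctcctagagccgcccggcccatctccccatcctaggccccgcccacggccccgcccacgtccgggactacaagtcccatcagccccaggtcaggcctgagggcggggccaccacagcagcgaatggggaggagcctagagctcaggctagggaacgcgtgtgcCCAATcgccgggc
Both strands were searched for CCAAT, for the E-box CACGTG, for the sterol response element core TCACNCCAC and for AGGTCANAGGTCA, a direct repeat with 1 base between the copies. CCAAT was present 3 times in the Adipoq window, 2 times in Thrsp, 3 times in Fasn, where a pair on opposite strands overlap, and 1 time in Acly, after the start. The other motifs were absent from these 4 windows, and CACGTG was found in 1 of the 2 Lipe windows. The window of Ucp1, whose level also moved between sets of arrays, held none of these motifs, and neither Lipe window held CCAAT. Of 32851 windows of this length, 37.4% held CCAAT, 7.15% CACGTG, 1.24% TCACNCCAC and 0.0396% the direct repeat. These matches describe letters only.

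The values are the submitters' scaled array intensities, whose trimmed mean was between 500.25 and 500.31 on every array. No pair of arrays was identical. The number in a sample's title runs from 01 to 20, and arrays of neighbouring numbers share sex and days. The arrays form 5 sets of 4, each with 1 array of every group: 01 to 04 (male, 5 days), 09, 10, 19 and 20 (male, 5 days), 11 to 14 (male, 3 days), 05 to 08 (female, 5 days) and 15 to 18 (female, 3 days). The labels do not say what a run of title numbers stands for. Arrays 05 to 08 stood apart from the rest: their median Spearman correlation with the other arrays was 0.895 to 0.934, against 0.943 to 0.969 for the other 16 arrays. One array, 10 (Hyp, low phosphate), carried a summed intensity of 19456 over 10 measured liver markers (Alb, Apoa1 and others), against 986 to 3398 on the other 19 arrays. The summed intensity of 7 kidney markers (Umod, Slc12a1, Slc34a1 and others) was 46304 to 60008 on all arrays, and single kidney markers differed between sets, as given below. The Phex probe set was dim in all groups, at 11.5 to 106 intensity units, and checks no label.

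Adipoq was at its highest on arrays 01 to 08, and its level followed the set of arrays rather than the group. Within each set the 4 values stand in the order Hyp on low phosphate, Hyp on control diet, normal on low phosphate and normal on control diet, here and for the genes that follow. Adipoq measured 920.6, 790.5, 1327.1 and 937.5 on male arrays 01 to 04 and 1159.3, 1319.0, 1266.8 and 1239.2 on female arrays 05 to 08, all at 5 days. The 5-day male arrays 09, 10, 19 and 20 gave 800.4, 471.7, 508.1 and 261.4. At 3 days Adipoq measured 497.9, 235.5, 298.2 and 361.9 in males and 323.6, 185.8, 252.7 and 216.9 in females. Both 3-day sets were thus below every array of 01 to 08, whereas the second 5-day male set overlapped the 3-day males, with only array 10 above 790 units. Over all tested probe sets, 23.7% did not overlap between arrays 01 to 04 and arrays 11 to 14. Between arrays 05 to 08 and arrays 15 to 18 the share was 36.3%.

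Car3 ranged from 98.7 to 2010.4 intensity units. It measured 1085.4, 956.4, 2010.4 and 1388.4 on arrays 01 to 04 and 1604.0, 1896.7, 1952.8 and 1614.6 on arrays 05 to 08. Arrays 09, 10, 19 and 20 gave 1375.7, 663.6, 1001.9 and 458.8, which overlapped arrays 01 to 04. The 3-day arrays gave 534.5, 255.0, 587.9 and 427.9 in males and 288.6, 98.7, 385.8 and 317.2 in females.

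Cidea and Ucp1, genes of brown adipocytes, were split by the same sets. Cidea averaged 630 ± 113 units on arrays 01 to 04 and 654 ± 60.9 on arrays 05 to 08, against 261 ± 147 on arrays 09, 10, 19 and 20, 158 ± 71.7 on arrays 11 to 14 and 134 ± 39.8 on arrays 15 to 18 (SD, n = 4 in each set). Its 5-day values were 637.2, 483.6, 758.4 and 641.2 on arrays 01 to 04, and 477.2, 226.8, 180.5 and 158.0 on arrays 09, 10, 19 and 20, without overlap. Between these sets of males 7 of the 14 member probe sets did not overlap, with the dimmest Scd1 probe set among them. The share over all 8695 tested probe sets was 10.9%. Ucp1 (brighter probe set) measured 544.8, 657.3, 440.7 and 556.0 on arrays 01 to 04 and 800.7, 626.6, 334.1 and 792.5 on arrays 05 to 08. On arrays 09, 10, 19 and 20 it measured 439.2, 148.8, 97.4 and 85.3, so that array 10 alone came near the first set. The dimmer Ucp1 probe set lay between 41.4 and 317.6 units, and its highest set mean was also that of arrays 05 to 08, 256 ± 52.1.

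**Figure D1:**
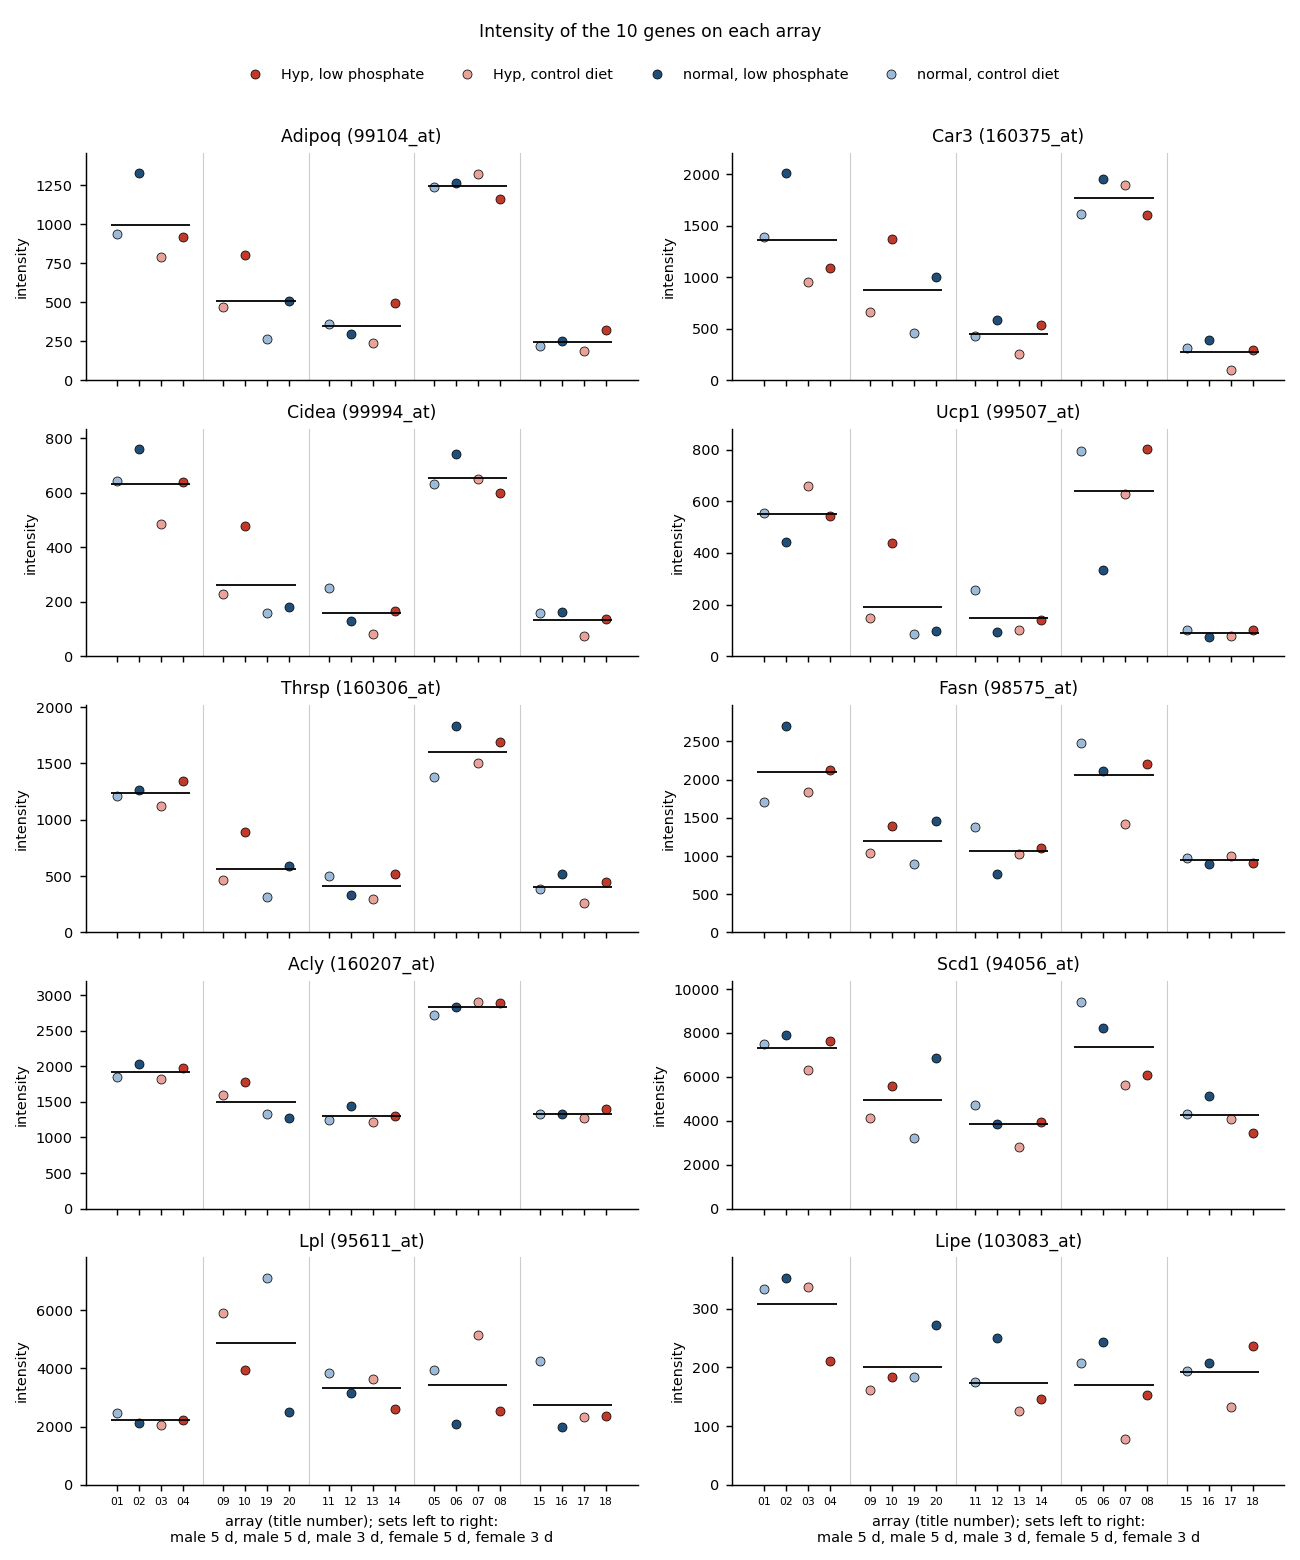
Intensity (linear axis from 0) of 10 genes, each by its brightest probe set, on each array, with arrays placed by set and coloured by group; black lines are the means of the 4 arrays of a set. Adipoq, Car3, Cidea, Ucp1, Thrsp and Acly had their highest set means on arrays 01 to 04 and 05 to 08, Lpl was highest on arrays 19 and 09 and Lipe on arrays 01 to 03.

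Thrsp measured 1344.3, 1122.1, 1262.0 and 1214.5 on arrays 01 to 04 and 1686.8, 1501.1, 1836.3 and 1380.0 on arrays 05 to 08. Arrays 09, 10, 19 and 20 gave 893.3, 464.8, 588.8 and 317.4, all below arrays 01 to 04. The 3-day arrays lay between 300.8 and 521.4 in males and between 263.4 and 522.5 in females.

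Fasn measured 2123.1, 1840.3, 2706.8 and 1703.4 on arrays 01 to 04, against 1391.2, 1038.2, 1454.7 and 890.3 on arrays 09, 10, 19 and 20, without overlap, as for 10.9% of all tested probe sets. Arrays 05 to 08 gave 2206.5, 1415.9, 2115.5 and 2478.5, and array 07, a Hyp array on control diet, thus lay within the range of the second male set. Fasn was between 766.2 and 1373.1 on the 3-day male arrays and between 891.0 and 1002.8 on the 3-day female arrays. Acly was bright on every array, from 1220.8 to 2908.6 units. Its 5-day female arrays, at 2888.6, 2908.6, 2831.2 and 2719.5, were above all others, and arrays 01 to 04 followed at 1970.9, 1828.5, 2039.2 and 1852.8. The remaining 12 arrays lay between 1220.8 and 1782.3.

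Scd1 was represented by 3 probe sets. The brightest averaged 7328 ± 703 units on arrays 01 to 04 and 7341 ± 1793 on arrays 05 to 08, against 4936 ± 1592 on arrays 09, 10, 19 and 20, 3834 ± 784 on arrays 11 to 14 and 4249 ± 704 on arrays 15 to 18 (SD, n = 4 in each set). Array 20, normal mice on low phosphate, reached 6840.4 and so overlapped the first set. The second ranged from 1969.1 to 6695.3 units and was highest on arrays 05 to 08. The third was dim, between 19.5 and 163.7 units, lay below the intensity filter and was not tested; it was lower on arrays 01 to 04 (19.5 to 51.5) than on arrays 09, 10, 19 and 20 (69.2 to 150.3), opposite to the other Scd1 probe sets.

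The lipases had other patterns. Lpl (brighter probe set) measured 2233.7, 2048.5, 2119.7 and 2450.3 on arrays 01 to 04, below all of arrays 09, 10, 19 and 20, at 3930.0, 5910.6, 2505.7 and 7113.1. Arrays 05 to 08 gave 2540.9, 5137.5, 2079.4 and 3943.4, and the 3-day arrays gave 2606.7, 3645.5, 3149.3 and 3846.8 in males and 2364.0, 2337.9, 1992.4 and 4260.5 in females. The dimmer Lpl probe set ranged from 445.0 to 1781.7 and was also highest on arrays 09 and 19. Lipe ranged from 77.1 to 352.4 units, was highest on arrays 01, 02 and 03 (332.8, 352.4 and 337.2) and lowest on array 07 (77.1).

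Array sets were compared with limma on log2(intensity + 38) over 8695 probe sets, with group as a term, and a call is a Benjamini-Hochberg adjusted p under 0.05. The threshold left 13 of the 14 members tested. Arrays 01 to 04 and arrays 09, 10, 19 and 20 share sex, days and group make-up, and 7 of the 13 members were called between them, 5 higher and 2 lower on arrays 01 to 04, where 2.97% of all probe sets were called. The members higher on arrays 01 to 04 were Ucp1 (brighter probe set) by 1.57 ± 0.30 (log2 difference ± SE, limma adjusted p = 0.015), Cidea by 1.26 ± 0.26 (adjusted p = 0.021), Thrsp by 1.16 ± 0.20 (adjusted p = 0.0097), Adipoq by 0.98 ± 0.22 (adjusted p = 0.031) and Fasn by 0.80 ± 0.20 (adjusted p = 0.047). Both Lpl probe sets were lower on arrays 01 to 04, with log2 differences of -1.02 ± 0.22 (brighter, adjusted p = 0.024) and -0.87 ± 0.22 (dimmer, adjusted p = 0.049). Acly (0.37), Scd1 (0.62 and 0.63), Car3 (0.67), Lipe (0.54) and the dimmer Ucp1 probe set (0.44) did not pass. These calls rested on single arrays: 1 to 7 were left when 1 array was left out, with 1 without array 03, 2 without array 01 and 2 without array 19, and all 13 differences kept their direction throughout. Over all probe sets, 46 to 333 were called in these fits, against 258 with all arrays, and the fewest were called without array 03. With array 10 left out, the array with much liver marker RNA, 4 members were called and the differences were 1.95 for Ucp1 (brighter probe set), 1.55 for Cidea, 1.34 for Thrsp and 1.16 for Adipoq. With the run of title numbers as a random block, 0 members were called.

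**Figure D2:**
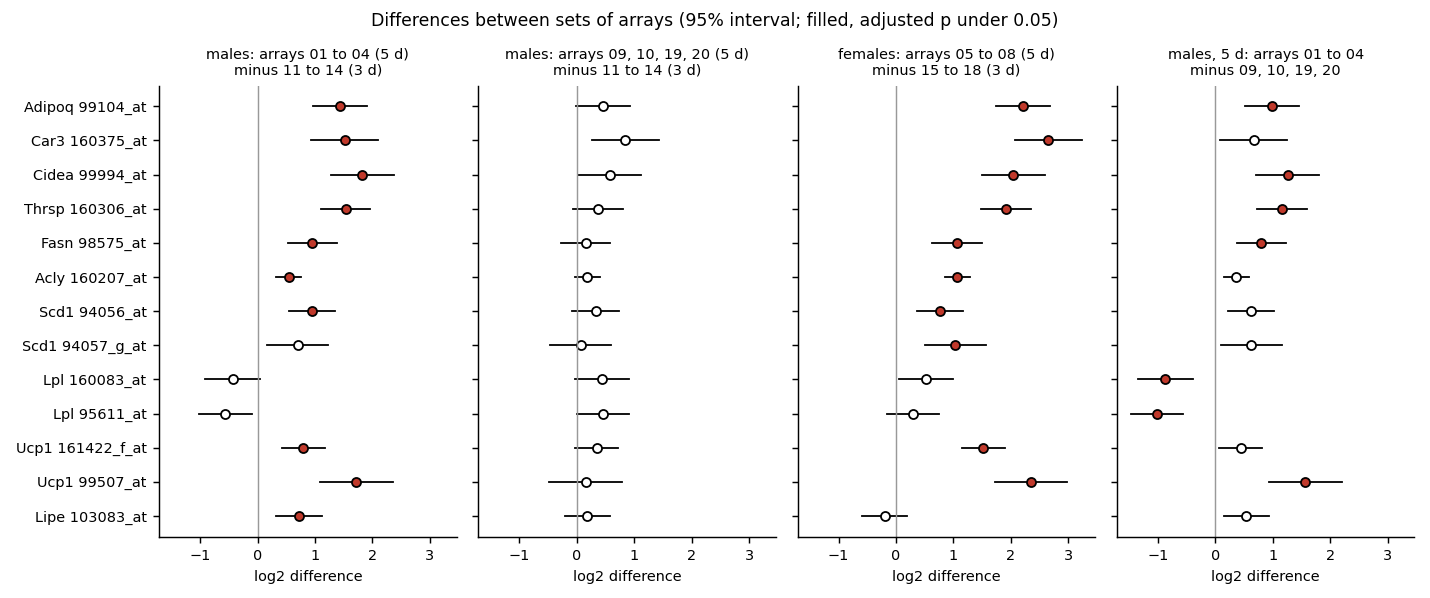
Log2 differences with 95% intervals for the 13 tested probe sets in 4 comparisons between sets of arrays; filled points have an adjusted p under 0.05. The difference between 5 and 3 days was as large as 2.65 for Car3 in females, whereas with male arrays 09, 10, 19 and 20 no member was called.

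The days on diet were compared in the same way. Averaged over the sexes, 10 of the 13 members were higher at 5 days than at 3 days and none was lower, beside 40.9% of all probe sets called in either direction. The log2 differences were 1.92 ± 0.21 for Car3, 1.65 ± 0.32 and 1.05 ± 0.13 for Ucp1, 1.62 ± 0.26 for Cidea, 1.58 ± 0.21 for Adipoq, 1.43 ± 0.23 for Thrsp, 0.81 ± 0.18 for Fasn, 0.72 ± 0.09 for Acly and 0.70 ± 0.16 and 0.71 ± 0.19 for Scd1 (SE, limma adjusted p between 2.5e-05 and 0.0076). Lpl (0.26 ± 0.20 and 0.12 ± 0.21) and Lipe (0.13 ± 0.15) did not pass.

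The contrast of days was not the same in every set. In females, 10 members were higher on the 5-day arrays 05 to 08 than on the 3-day arrays 15 to 18, where 43.9% of all probe sets were called: Car3 by 2.65 ± 0.27, Ucp1 (brighter probe set) by 2.35 ± 0.30, Adipoq by 2.20 ± 0.22, Acly by 1.07 ± 0.10 and Fasn by 1.06 ± 0.20. In males, arrays 01 to 04 against arrays 11 to 14 again had 10 members higher, where 6.04% of all probe sets were called, among them Cidea by 1.83 ± 0.26, Thrsp by 1.53 ± 0.20, Scd1 (brightest probe set) by 0.95 ± 0.19 and Lipe by 0.72 ± 0.19. With the run of title numbers as a random block these 10 male calls were all lost (limma adjusted p between 0.11 and 0.41), and 8 of the 13 members were called in females. With arrays 09, 10, 19 and 20 as the 5-day males, 0 members were called by limma (2 at an unadjusted p under 0.05), where 0.368% of all probe sets were called. There the differences were 0.85 ± 0.27 for Car3 (95% interval 0.27 to 1.43), 0.46 ± 0.22 for Adipoq (-0.02 to 0.93) and 0.16 ± 0.20 for Fasn (-0.27 to 0.59). Days on diet and run of title numbers cannot be told apart in these arrays, since no run holds both 3 and 5 days, and the 2 sets of 5-day males differed from each other by as much as 1.57 (Ucp1). With all of arrays 01 to 08 left out, 0 members were called for days.

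Between the sexes, 2 of the 13 members were called, both higher in females, where 16.6% of all probe sets were called. Acly was higher by 0.38 ± 0.09 (SE, limma adjusted p = 0.0092) and the dimmer Ucp1 probe set by 0.41 ± 0.13 (adjusted p = 0.047), while the brighter Ucp1 probe set differed by 0.22 ± 0.32 without passing. The Acly difference came from the 5-day arrays: with 5-day arrays alone it was 0.74 (adjusted p = 0.0060), and with 3-day arrays alone it was 0.03 (adjusted p = 0.90). The difference between these values was not tested, and females at 5 days are arrays 05 to 08 only. With the run of title numbers as a random block neither was called (adjusted p = 0.11 for Acly and 0.30 for the dimmer Ucp1 probe set), and without arrays 05 to 08 the Ucp1 difference turned to -0.068.

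No member passed the same test for diet or genotype. Low phosphate against control diet called 0 of 13 members in Hyp mice (1 at an unadjusted p under 0.05) and 0 in normal mice (2 unadjusted), where 0.15% and 0.184% of all probe sets were called. Hyp against normal mice called 0 members on low phosphate diet (2 unadjusted) and 0 on control diet (0 unadjusted), beside 0.357% and 0.253% of all probe sets. The interaction of genotype and diet called 0 members (0 unadjusted) and 0.046% of all probe sets. Averaged over genotypes, diet called 0 members (3 unadjusted) and 0.472% of all probe sets, and averaged over diets, genotype called 0 members (1 unadjusted) and 1.28% of all probe sets. The median log2 difference of the 13 members was 0.16 for diet averaged over genotypes, beside 0.01 over all probe sets, and -0.01 for genotype averaged over diets, beside 0.02.

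**Figure D3:**
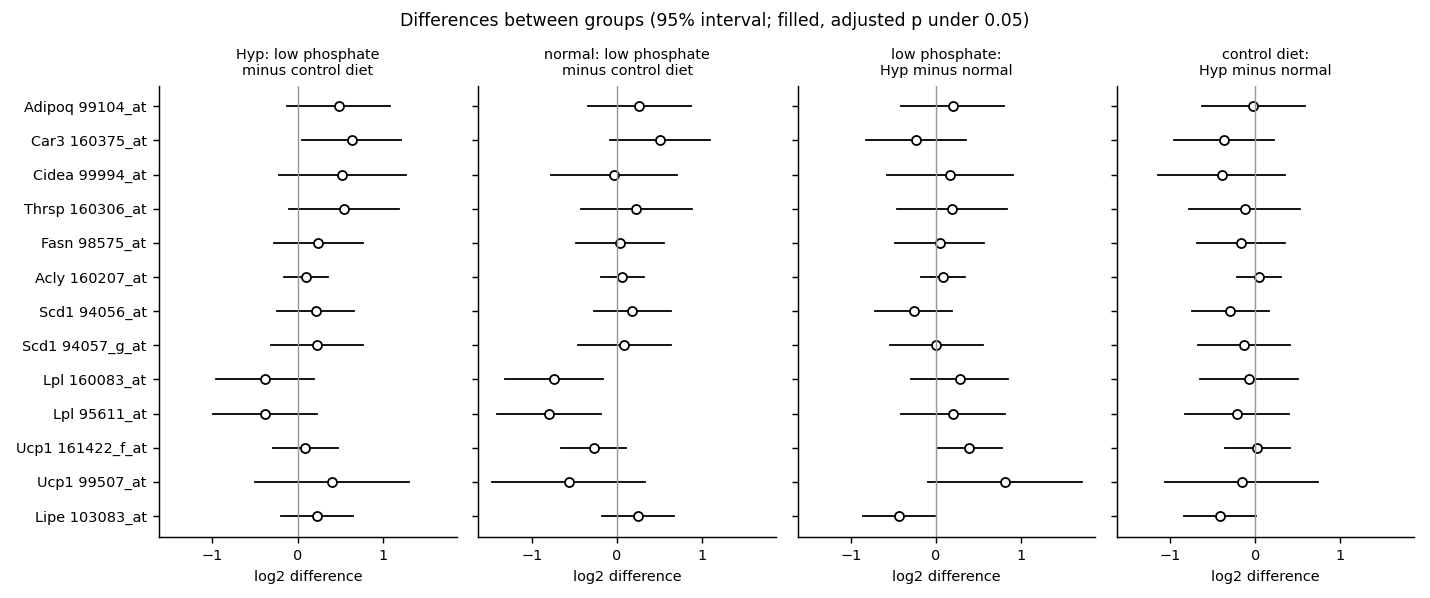
Log2 differences with 95% intervals for the 13 tested probe sets between the 4 groups, from 1 fit to all 20 arrays; open points did not reach an adjusted p under 0.05, which holds for all of them. The Lpl intervals in normal mice and the Lipe interval on low phosphate diet lie below 0, and the Car3 interval in Hyp mice and that of the dimmer Ucp1 probe set on low phosphate diet lie above it, before adjustment over 8695 probe sets.

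Lpl was the member with the lowest low phosphate values relative to control diet. In normal mice, the dimmer probe set measured 586.3, 445.0, 769.4, 484.2 and 587.3 on low phosphate diet, against 690.1, 1105.9, 1023.1, 642.7 and 1652.2 on control diet, in the same order of runs. All 5 pairs of arrays from the same run were lower on low phosphate, although the groups overlapped. For the brighter probe set, low phosphate gave 2119.7, 2079.4, 3149.3, 1992.4 and 2505.7 in normal mice, against 2450.3, 3943.4, 3846.8, 4260.5 and 7113.1 on control diet, again with all 5 pairs lower. The log2 differences in normal mice were -0.74 ± 0.27 (dimmer, 95% interval -1.31 to -0.16, limma adjusted p = 0.41) and -0.80 ± 0.29 (brighter, -1.41 to -0.18, adjusted p = 0.39).

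In Hyp mice, the brighter Lpl probe set measured 2233.7, 2540.9, 3930.0, 2606.7 and 2364.0 on low phosphate diet, against 2048.5, 5137.5, 5910.6, 3645.5 and 2337.9 on control diet. Of these 5 pairs 3 were lower on low phosphate, and the difference was -0.39 ± 0.29 (95% interval -0.998 to 0.227, adjusted p = 0.998). The interaction of genotype and diet for this probe set was 0.41 ± 0.41 (95% interval -0.46 to 1.28). Averaged over genotypes, the differences were -0.56 ± 0.19 (dimmer, adjusted p = 0.29) and -0.59 ± 0.21 (brighter, adjusted p = 0.31), with 9 and 8 of 10 pairs lower. With the run of title numbers as a block the adjusted p was 0.075 and 0.055. At 5 days alone, where 0.15% of all probe sets were called for diet, 0 members passed (2 unadjusted), with -0.74 ± 0.25 and -0.68 ± 0.27 for Lpl; at 3 days 0 members passed (1 unadjusted), beside 0.046% of all probe sets. Without arrays 01 to 04, where the Lpl values of all groups were close together, the dimmer Lpl probe set at 5 days was called at -1.10 (adjusted p = 0.017) and the brighter was at -0.998 (adjusted p = 0.095). This setting was not planned. It takes out the 5-day pairs that differed least for the dimmer probe set (0.21 in Hyp and -0.22 in normal mice), so the call is no separate evidence of a diet difference.

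**Figure D4:**
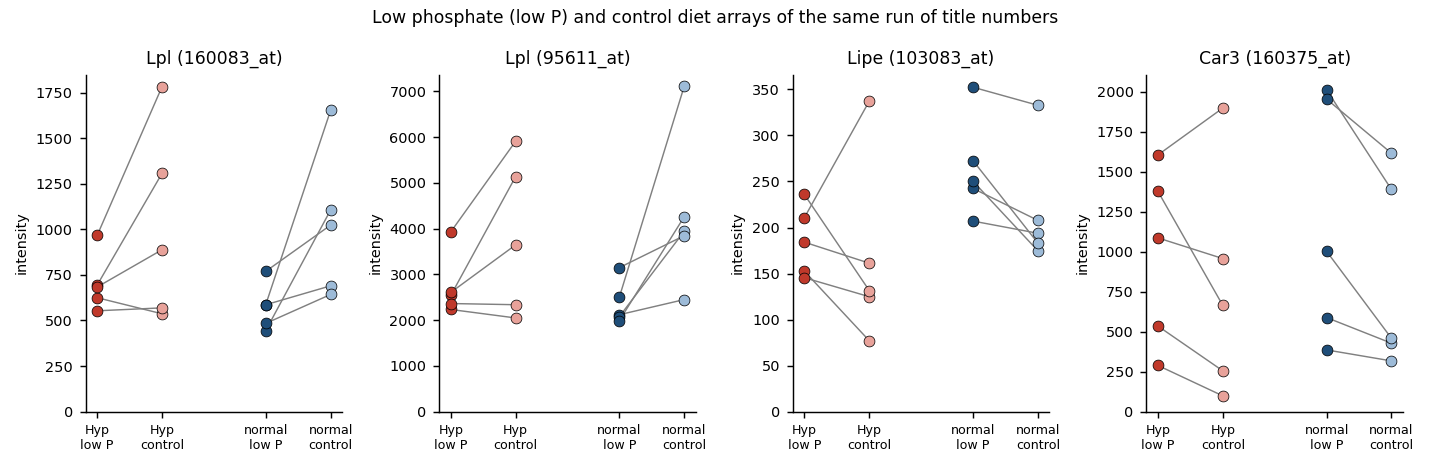
Intensity (linear axis from 0) of both Lpl probe sets, Lipe and Car3, with the low phosphate and the control diet array of 1 run and genotype joined by a line. Lpl was lower on low phosphate in 5 of 5 normal pairs, and Car3 was higher in 5 of 5 normal pairs and 4 of 5 Hyp pairs, and no group difference passed the adjusted threshold.

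Car3 went the other way with diet. In Hyp mice it measured 1085.4, 1604.0, 1375.7, 534.5 and 288.6 on low phosphate diet, against 956.4, 1896.7, 663.6, 255.0 and 98.7 on control diet. In normal mice it measured 2010.4, 1952.8, 587.9, 385.8 and 1001.9 on low phosphate diet, against 1388.4, 1614.6, 427.9, 317.2 and 458.8 on control diet. The groups overlapped because each spans the sets, but 9 of 10 pairs were higher on low phosphate. Averaged over genotypes the log2 difference was 0.57 ± 0.20 (95% interval 0.16 to 0.99, limma adjusted p = 0.30). Adipoq was higher in 8 of 10 pairs (0.37 ± 0.20, adjusted p = 0.58), Thrsp in 9 of 10 (0.39 ± 0.22, adjusted p = 0.60) and Lipe in 9 of 10 (0.24 ± 0.14, adjusted p = 0.61). Ucp1 was higher in 5 of 10 pairs for either probe set, with differences of -0.08 ± 0.30 and -0.09 ± 0.13. With Adipoq as a covariate the Car3 difference was 0.26 (adjusted p = 0.46).

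Lipe had the lowest values in Hyp relative to normal mice. It measured 210.7, 152.6, 184.1, 145.5 and 235.9 in Hyp mice on low phosphate diet, against 352.4, 242.5, 250.3, 207.0 and 272.7 in normal mice on that diet. On control diet it measured 337.2, 77.1, 161.3, 124.9 and 131.6 in Hyp mice, against 332.8, 207.8, 174.8, 193.8 and 183.2 in normal mice. These values stand in order of array number, so Hyp and normal values at the same place are not all from 1 run. In pairs of arrays from the same run, Lipe was lower in Hyp mice in 6 of 8 and higher in 2. On low phosphate diet array 18 (Hyp, 235.9) was above array 16 (normal, 207.0). The Hyp and normal arrays overlapped on both diets. The difference averaged over diets was -0.42 ± 0.14 (95% interval -0.72 to -0.13, limma adjusted p = 0.19), and it was called without array 03 (-0.53, adjusted p = 0.033) and in none of the other 19 fits with 1 array left out. Car3 was lower in Hyp mice in 7 of 8 pairs (-0.30 ± 0.20, adjusted p = 0.47) and the brightest Scd1 probe set in 7 of 8 (-0.28 ± 0.15, adjusted p = 0.40). The brighter Ucp1 probe set was higher in 4 of 4 Hyp pairs on low phosphate diet (0.81 ± 0.43, 95% interval -0.09 to 1.71, adjusted p = 0.58) and lower in 3 of 4 on control diet (-0.16 ± 0.43).

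Interactions with days were tested as well. The diet by days interaction called 0 members (0 unadjusted) and 0% of all probe sets (291 probe sets unadjusted, limma), with Fasn at 0.63 ± 0.33 (95% interval -0.07 to 1.33). The genotype by days interaction called 0 members (0 unadjusted) and 0% of all probe sets (474 unadjusted), with Cidea at 0.62 ± 0.50 and Car3 at 0.56 ± 0.39. Without arrays 01 to 08 it called 2 members, Cidea (1.32, adjusted p = 0.028) and Car3 (1.11, adjusted p = 0.048), in a fit that called 690 probe sets in all. The 5-day arrays of that fit are 09 and 10 (both Hyp) and 19 and 20 (both normal), so that genotype at 5 days and run of title numbers cannot be told apart in it, and array 10 is the one with the high liver marker sum.

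Members were set against Adipoq within arrays 01 to 08 (n = 8) and within arrays 11 to 20 (n = 10), because the arrays fall into sets of high and low Adipoq. Arrays 09 and 10 are in neither. Adipoq on array 09 (471.7) lay within the range of arrays 11 to 20 (185.8 to 508.1). On array 10 (800.4) it lay within the range of arrays 01 to 08 (790.5 to 1327.1). The permutations exchange arrays between sets that differ in sex, days and Adipoq level, so their p-values do not allow for the sets, and r with the run of title numbers taken out was 0.71 for Car3 and -0.08 for Acly over all 20 arrays. Car3 followed Adipoq in both. Its Pearson r was 0.96 within arrays 01 to 08 (exact permutation p = 0.00012, adjusted p = 0.0022 over 18 relations, Spearman rho 0.98 with p = 0.00040 and adjusted p = 0.0071) and 0.79 within arrays 11 to 20 (permutation p = 0.0050, adjusted p = 0.045, rho 0.76 with p = 0.014 and adjusted p = 0.11), and without the 2 arrays farthest from the Adipoq median it was 0.90 and 0.68. For Cidea r was 0.75 (exact permutation p = 0.024, adjusted p = 0.11) and 0.61 (permutation p = 0.058, adjusted p = 0.17), and for Thrsp 0.62 (exact permutation p = 0.10, adjusted p = 0.24) and 0.78 (permutation p = 0.0087, adjusted p = 0.052). Fasn had r of 0.26 (exact permutation p = 0.53) and 0.58 (permutation p = 0.077), Scd1 0.18 (exact permutation p = 0.66) and 0.45 (permutation p = 0.20), and Acly 0.75 (exact permutation p = 0.052) and -0.00 (permutation p = 1.00), with adjusted p between 0.17 and 1.00. Ucp1 had r of -0.20 (exact permutation p = 0.63) and 0.46 (permutation p = 0.19), Lpl 0.46 (exact permutation p = 0.24) and -0.20 (permutation p = 0.58), and Lipe -0.45 (exact permutation p = 0.28) and 0.38 (permutation p = 0.27), with adjusted p between 0.35 and 0.70. Spearman's rho of these 8 members lay between -0.33 and 0.79 in the first set (exact permutation p 0.028 to 0.79) and between -0.02 and 0.72 in the second (permutation p 0.023 to 0.97), with adjusted p of 0.11 or more. All tests were two-sided. Within arrays 09 to 20 (n = 12) 4 members passed in place of 1 (permutation test, adjusted over 18 relations): Car3 (r 0.87, adjusted p = 0.0021), Thrsp (0.87, 0.0021), Cidea (0.82, 0.0032) and Ucp1 (0.75, 0.018). Within the male arrays 11 to 14, 19 and 20 (n = 6) Thrsp alone passed (r 0.95, exact permutation p = 0.0014, adjusted p = 0.0125 over 9 relations), and Car3 was at 0.74 (exact permutation p = 0.076, adjusted p = 0.22).

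**Figure D5:**
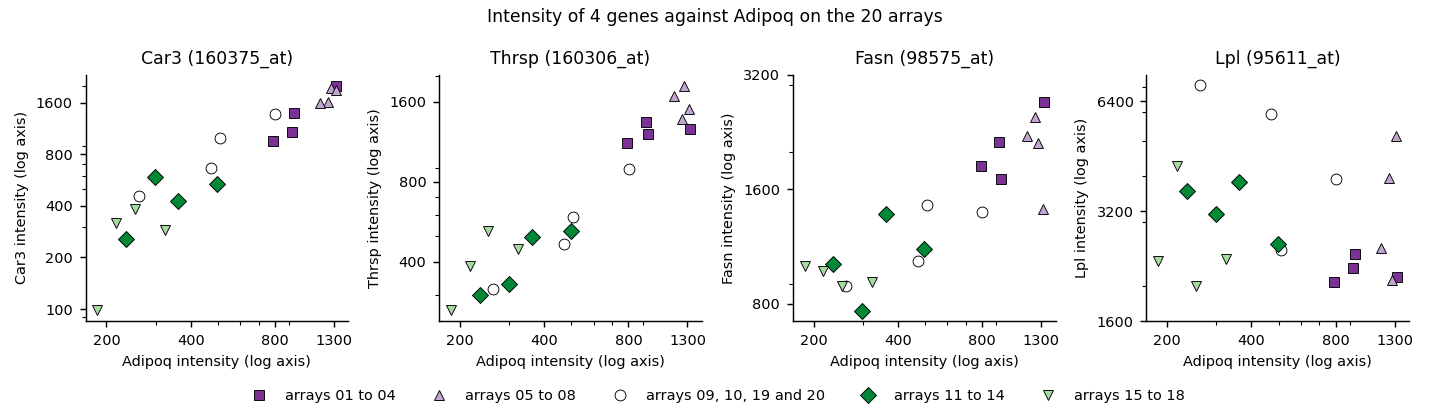
Intensity of Car3, Thrsp, Fasn and Lpl against Adipoq (both axes logarithmic), 1 point per array, with symbols for the 5 sets of arrays. Car3 and Thrsp were high where Adipoq was high, Fasn spread from 1415.9 to 2706.8 on arrays 01 to 08, and the highest Lpl values were on arrays with Adipoq of 261.4 and 471.7.

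Other genes of adipocytes did not all share the split. Of 14 listed genes 10 were measured and 7 tested, and between 5 and 3 days, where 40.9% of all probe sets were called, 0 were higher and 1, Slc2a4 (the insulin-responsive glucose transporter), was lower by -0.46 (limma adjusted p = 0.0030), with a median of -0.00 beside 0.01 over all probe sets. In females alone, where 43.9% were called, Cd36 was higher (0.81, limma adjusted p = 0.022) and Slc2a4 lower (-0.82, adjusted p = 0.00086). The median there was -0.23 beside 0.02 over all probe sets. Fabp4, a fatty acid carrier abundant in adipocytes, averaged 320 ± 33.5 units on arrays 01 to 04, 260 ± 88.0 on arrays 05 to 08, 271 ± 36.1 on arrays 09, 10, 19 and 20, 308 ± 37.7 on arrays 11 to 14 and 292 ± 27.9 on arrays 15 to 18 (SD, n = 4 in each set). Its difference between 5 and 3 days was -0.13 (adjusted p = 0.41). Lep (leptin) differed by 0.11 (adjusted p = 0.65) and Retn (resistin) by 0.35 (adjusted p = 0.36). The 5 measured adipocyte markers, Adipoq, Retn, Fabp4, Lep and Cidec, with Cidec below the filter, summed to 1488 to 2690 units in Hyp mice on low phosphate, 1012 to 2041 in Hyp mice on control diet, 1256 to 2763 in normal mice on low phosphate and 883 to 2743 in normal mice on control diet, and no measured marker was at 0. Of the 4 tested markers, Adipoq alone was called in any of the 4 comparisons of sets that were run.

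Of 9 further genes of brown fat 7 were measured and 6 tested, of which 2 were higher and 2 lower at 5 days, beside 40.9% of all probe sets. Cox8b, a subunit of cytochrome oxidase, was higher by 0.50 (adjusted p = 0.015) and Ebf2, a transcription factor of brown preadipocytes, by 0.52 (adjusted p = 0.035). Fabp3, the heart-type fatty acid carrier, was lower by -1.06 (adjusted p = 0.00020), and Ppargc1a, a coactivator of mitochondrial genes, by -0.49 (adjusted p = 0.019). The 5 brown adipocyte markers (Ucp1, Cidea, Cox7a1, Cox8b and Elovl3, the last below the filter) summed to 1885 to 2087 units on arrays 01 to 04 and 1691 to 2570 on arrays 05 to 08, against 852 to 1583 on arrays 09, 10, 19 and 20, 681 to 1156 on arrays 11 to 14 and 773 to 880 on arrays 15 to 18. This sum holds the members Ucp1 and Cidea, so its split in part restates theirs. The 7 measured genes of the list above, which holds no member, had a median sum of 1764 on arrays 01 to 04. On the other sets it was 1603 (arrays 05 to 08), 1723 (09, 10, 19 and 20), 2017 (11 to 14) and 1940 (15 to 18).

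Of 28 further genes of fat synthesis 16 were measured and 15 tested. Between 5 and 3 days, where 40.9% of all probe sets were called, 0 were higher and 2 lower, Nr1h3 (the liver X receptor, -0.52) and Dgat1 (an enzyme of triglyceride synthesis, -0.32), with a median of 0.08 beside 0.01. In females alone, where 43.9% of all were called, 0 were higher and 4 lower: Nr1h3 (-0.83), Mid1ip1 (-0.51), Dgat1 (-0.50) and Pgd (-0.33). Elovl6, which lengthens palmitate, was higher on arrays 01 to 04 than on arrays 09, 10, 19 and 20 (0.99, limma adjusted p = 0.0051) and than on arrays 11 to 14 (1.01, adjusted p = 0.0030), and Pgd, which makes NADPH, was higher on arrays 01 to 04 than on arrays 09, 10, 19 and 20 (0.47, adjusted p = 0.047), where 2 were higher and 0 lower beside 2.97% of all probe sets. In females Elovl6 differed by 0.12 between 5 and 3 days (adjusted p = 0.54), with 564 to 784 units on arrays 05 to 08 and 541 to 656 on arrays 15 to 18, whereas Adipoq was 1159.3 to 1319.0 and 185.8 to 323.6. Elovl6 was higher in females (0.97, adjusted p = 0.0026), and Me1 (malic enzyme, -0.44) and Dgat1 (-0.50) were lower. Of 14 further genes of lipolysis and fat uptake 9 were measured and 8 tested, and 0 were higher and 1 lower at 5 days (Lipa, lysosomal acid lipase, -0.30), again beside 40.9% of all probe sets. No gene of these 4 lists was called for diet, and for genotype averaged over diets Apoc1, an apolipoprotein made in liver among other tissues, was higher (0.75, limma adjusted p = 0.036) and Fabp3 lower (-0.79, adjusted p = 0.015) in Hyp mice. The highest Apoc1 value, 682.4, was on array 10, with its high liver marker sum, and without that array Apoc1 did not pass (0.65, adjusted p = 0.056) whereas Fabp3 did (-0.72, adjusted p = 0.030).

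Markers of tissues other than fat also moved between sets. The 13 skeletal muscle markers, of which 5 (Acta1, Mb, Tnnt3, Tnni2 and Myh1) lay below the filter, summed to 3322 to 4081 units on arrays 01 to 04 and 3562 to 5556 on arrays 05 to 08, against 2302 to 4159 on arrays 09, 10, 19 and 20, 2801 to 3042 on arrays 11 to 14 and 2357 to 3296 on arrays 15 to 18. Of the 8 tested, 5 (Myh4, Tnnc2, Myl1, Mylpf and Pvalb) were higher at 5 days, beside 40.9% of all probe sets (1796 higher and 1758 lower). Pvalb averaged 2160 units over all arrays and made up most of the muscle marker sum, while the other muscle markers averaged 11.0 to 268 each. Whether the Pvalb RNA came from muscle or from kidney was not tested. The 7 measured adrenal markers (of 10, with Cyp11a1, Hsd3b1 and Th below the filter) summed to 6570 to 8378 units on arrays 05 to 08 and 5170 to 6019 on arrays 15 to 18. Star, Cyp21a1, Pnmt and Fdx1 were tested, and in females 43.9% of all probe sets were called between 5 and 3 days. There Star and Cyp21a1, of steroid synthesis, were higher at 5 days by 1.09 (limma adjusted p = 0.00035) and 1.02 (adjusted p = 0.00030). Pnmt was higher by 0.66 (adjusted p = 0.021), and Fdx1 was not called. Fdx1 averaged 4493 units over all arrays and made up most of the adrenal marker sum. Whether the Fdx1 RNA came from adrenal or from kidney was not tested. The 10 measured liver markers, 3 of them below the filter, summed to 1068 to 1306 units on arrays 01 to 04, 1303.5 to 3398 on arrays 05 to 08, 1209 to 19456 on arrays 09, 10, 19 and 20, 985.6 to 1999 on arrays 11 to 14 and 1184 to 1567 on arrays 15 to 18. On arrays 05 to 08 the sums were 3397.8, 1634.9, 2550.1 and 1303.5, and Thrsp was highest on the arrays with 2550.1 and 3397.8. Blood markers summed to 6660 to 15232 units over all arrays, and the 2 measured pancreas markers to 2031 to 3754. Among kidney markers, Slc34a1 (-0.23), Aqp2 (-0.62) and Slc12a3 (-0.26) were called lower at 5 days, beside 40.9% of all probe sets, and none higher. Umod was lower on arrays 01 to 04 than on arrays 11 to 14 (-0.42), where 6.04% were called. Aqp2 (-0.95) and Slc12a3 (-0.41) were lower on arrays 05 to 08 than on arrays 15 to 18, where 43.9% were called. The ratio of the 3′ to the 5′ actin control probe sets, a sign of RNA quality, was 1.22 to 1.27 on arrays 01 to 04, 1.75 to 2.63 on arrays 05 to 08, 1.62 to 1.99 on arrays 09, 10, 19 and 20, 1.498 to 1.99 on arrays 11 to 14 and 1.40 to 1.92 on arrays 15 to 18. The part of these markers and of RNA quality in the levels of the members was not tested.

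The genes whose array-to-array pattern was most like that of Adipoq were ranked by Pearson r over the 20 residuals of the fit with group, sex and days, as a description, since the arrays share their runs. They were Elovl6 (0.93), Fbxo21 (0.89), Pdap1 (0.89), Mllt10 (0.87) and Rab34 (0.85). Those most like Fasn were Dap (0.86), Tspo (0.85), Tbc1d14 (0.85), Igfbp4 (0.82) and Clk2 (0.82). With the run of title numbers in place of sex and days these names changed: for Adipoq they were Mterf2 (0.91), Fbxo21 (0.81), Cebpd (0.81), Elovl6 (0.81) and Igfbp3 (0.80), and for Fasn Hsd17b10 (0.94), Itgb1bp1 (0.89), Fbxw5 (0.83), Rarres2 (0.82) and Slc12a3 (0.80). Among the members, r with Adipoq was 0.91 for Cidea, 0.90 for Thrsp, 0.86 for Ucp1, 0.85 for Car3, 0.79 for Acly, 0.78 for Scd1, 0.73 for Fasn, 0.49 for Lipe and -0.59 for Lpl. For the members, with the run in place of sex and days, r with Adipoq was 0.71 for Car3, 0.66 for Cidea, 0.64 for Thrsp, 0.48 for Scd1, 0.45 for Ucp1, 0.38 for Fasn, -0.04 for Lipe, -0.08 for Acly and -0.13 for Lpl.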

How the data were processed

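Kidney RNA was hybridised to 20 arrays, each a pool of 3 mice per the labels. The deposited table holds the authors' intensity per probe set, whose trimmed mean (2% off each end) was near 500 on every array; the software used is not stated in the labels. Of 12422 probe sets, after 66 controls, the platform annotation gave 1 gene for 10833, several for 396 and none for 1193.

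Values were analysed as log2(intensity + 38), an offset at the 20th percentile, without probe sets under the 30th percentile of mean intensity (79.4). limma 3.58.1 in R 4.3.3 fitted group and strata of sex and days (13 residual degrees of freedom), with Benjamini-Hochberg adjustment over 8695 probe sets; the script was tested on simulated data. The p-values measure the spread between pools, which may be technical. Sets of title numbers were compared after the data were seen. A correlation with Adipoq over 20 arrays had been planned; it was computed within sets (exact, or 100000 permutations) because the arrays form separate clusters. Every member is named; of other lists, genes that passed a threshold or were among the 3 brightest, plus the 5 genes most like Adipoq and Fasn; Lep, Retn and Fabp4 were named as adipocyte markers and single marker genes after their values were seen. Members and lists were chosen with earlier results of these data known. Alternatives were other offsets, normalization, filters, variance models, blocks, covariates and left-out arrays.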

Additional observations from a re-analysis of the deposited data

Results flagged for a closer look

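In 2 of 56 combinations of probe set and group, 1 array lay far from the other 4 of its group; about 1 in 20 would by chance. The brighter Lpl probe set measured 3930 on array 10 among the Hyp arrays on low phosphate diet, where the other 4 measured 2233.7 to 2606.7. This array also carried the high liver marker sum. Lipe measured 332.8 on array 01 among the normal arrays on control diet, where the other 4 measured 174.8 to 207.8. Array 01 belongs to the set in which Lipe was also 352.4 and 337.2 on arrays of 2 other groups.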

How the results depend on the processing

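Counts are of the 13 tested members, except where a setting changed which members were tested. With no filter the dimmest Scd1 probe set was added, and with Adipoq as a covariate Adipoq was not counted. With a filter at the median the dimmer Ucp1 probe set was among those not tested, which took away its call for sex. For sex, 2 became 3 without arrays 01 to 04, 1 with an offset of 1, no filter, a filter at the median, trend and robust variances, Adipoq as a covariate or without arrays 09, 10, 19 and 20, and 0 without arrays 05 to 08, without arrays 01 to 08, with 3-day arrays alone or with the run of title numbers as a random block. For 5 against 3 days, 10 became 0 without arrays 05 to 08, without arrays 01 to 08, with male arrays alone or with Adipoq as a covariate, 7 with the random block and 11 without arrays 01 to 04. For genotype by days, 0 became 2 without arrays 01 to 08, and for diet at 5 days, 0 became 1 without arrays 01 to 04. Between arrays 01 to 04 and arrays 09, 10, 19 and 20, 7 became 0 with Adipoq as a covariate or the random block, 1 with male arrays alone and 8 with a filter at the median or trend and robust variances. Between arrays 01 to 04 and arrays 11 to 14, 10 became 0 with either of the first 2, 12 with array weights and 11 without arrays 09, 10, 19 and 20, and between arrays 05 to 08 and arrays 15 to 18, 10 became 0 with the covariate, 8 with the random block and 11 without arrays 09, 10, 19 and 20. With Adipoq as a covariate the calls over all probe sets fell too, from 258 to 1, from 525 to 3 and from 3815 to 0 in these comparisons. The loss of calls with this covariate was thus not particular to the members. The correlations past the threshold within arrays 11 to 20 were 2 on linear intensity, 4 with arrays 09 and 10 added and 1 otherwise, male arrays alone included. The causes were not tested. The dimmer Ucp1 probe set turned to -0.068 between the sexes without arrays 05 to 08, without arrays 01 to 08 and with 3-day arrays alone. With Adipoq as a covariate the days difference turned to -0.17 for Cidea, -0.10 for Thrsp, -0.17 for Fasn, -0.19 and -0.29 for Scd1 and -0.40 for Ucp1, and in females to -0.0073 for Cidea and -0.27 and -0.35 for Scd1. With 1 array left out, the count was 1 to 2 for sex, 10 for days, 0 to 1 for genotype averaged over diets, 1 to 7 between the male 5-day sets, 7 to 11 and 10 to 11 for the male and female sets by days, and 0 elsewhere.

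Counts over all probe sets under other settings ranged from 6 to 4341 for days (3554), 19 to 2231 for sex (1445), 0 to 97 for diet averaged over genotypes (41), 0 to 187 for genotype averaged over diets (111), 0 to 17 and 0 to 85 for diet in Hyp (13) and normal mice (16), 0 to 67 and 0 to 56 for genotype on low phosphate (31) and control diet (22), 0 to 6 for the interaction (4), 0 to 690 for genotype by days (0), 0 to 31 and 0 to 56 for diet at 5 (13) and 3 days (4), 1 to 487 between the male 5-day sets (258), 3 to 2195 and 3 to 38 for days with either male set (525 and 32) and 0 to 4983 for days in females (3815). The labels give the groups no shared replicate numbers; with the run of title numbers as a block, 0 members were called for diet or genotype, as without it. Correlations within arrays 01 to 08 were not rerun with 1 sex or without arrays 05 to 08, which leaves 4 arrays. Intensity near background limits Ucp1 (dimmer probe set), Scd1 (dimmest probe set) and Phex.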
